A study of Mus musculus with 8 samples.

Results

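The histone variant H3.3 is made from a pair of mouse genes, H3f3a and H3f3b, and is placed on DNA by dedicated histone chaperones. Peaks at these genes and at the genes of their chaperones were described across 8 lists of ChIP-seq peaks. The 9 genes were H3f3a, H3f3b, Hira, Cabin1, Ubn1, Ubn2, Asf1a, Daxx and Atrx, of 21938 protein-coding genes in the GENCODE M21 annotation. They were chosen for their known roles and not by the peaks, but with earlier results of these data known. A peak was counted at a gene when it overlapped, by at least 20 bp, the start window, which runs from 5 kb upstream to 1 kb downstream of any annotated transcript start. Peaks in the rest of the gene were counted as gene body peaks.

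H3.3 differs from the canonical H3 histones in that it is made throughout the cell cycle and can be put into chromatin without DNA replication. The HIRA complex, with HIRA, CABIN1 and UBN1 or UBN2, receives H3.3 from ASF1A and is best known for placing it at active genes. DAXX, together with the chromatin remodeller ATRX, places H3.3 at telomeres, pericentric repeats and silenced retroelements.

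All libraries were made from E14Tg2a, an established line of mouse embryonic stem cells, used between passages 37 and 40. Pluripotent cells kept in leukemia inhibitory factor (LIF) are called ESCs, and monolayers without LIF that received 1 µM retinoic acid (RA) for 48 h are called NCs, for neuronal cells. Chromatin pooled from several plates was precipitated with antibodies to FGFR1, a fibroblast growth factor receptor also found in the nucleus, to RXR or Nur77, which are nuclear receptors, or, in NCs, to H3.3 itself. FGFR1 in RA had 2 libraries, replicates 1 and 2, the second titled as a second experiment, and each of the other 6 groups had 1, so no difference between LIF and RA could be tested. A single cell line carried all of these data, and peak lists hold no expression, so markers of ESCs and NCs could not be used to check the labelled state.

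The lists held between 10634 peaks, for H3.3, and 46137, for FGFR1 in RA replicate 1. A pair of deposited values describes a peak at its summit. The fold is the ratio of fragments to the local background after 1 was added to both, and the −log10 p measures that excess. From these, the background of each library was worked out as 1.27 fragments per kb for H3.3, 1.87 for RXR in RA, 2.71 for FGFR1 in LIF, 3.82 for Nur77 in RA, 4.98 for Nur77 in LIF, 7.09 for RXR in LIF, and 4.17 and 6.78 for FGFR1 in RA replicates 1 and 2. A deeper library can reach a given −log10 p at a lower fold, so −log10 p values are compared below between genes within a library and not between libraries. FGFR1 replicate 2 stood apart in having broad peaks, whose median width was 311 bp, while the other 7 lists had medians from 89 to 140 bp, and a median of 27 fragments at the summit against 9 to 12.

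Every one of the 9 genes had a start-window peak in at least 1 library, against 70.1% of protein-coding genes. H3f3b, Cabin1, Ubn1 and Ubn2 each had one in 7 of 8 libraries, a number that 9.80% of protein-coding genes reached or passed. Hira had one in 6, H3f3a in 4, Asf1a and Daxx in 3 each, and Atrx in 1. The start windows held 74 peaks, of which 66 lay near the starts of transcripts in the basic set of the annotation, its better supported transcripts, and 8 near other starts inside Hira, Cabin1 and Ubn2. The gene bodies held 11 more. Of the 66 peaks, 56 had their summit within 500 bp of a basic start. The window length differed among genes, with a median of 25304 bp for the 9 genes and 8823 bp for all protein-coding genes, since many of the 9 have several starts.

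**Figure D1:**
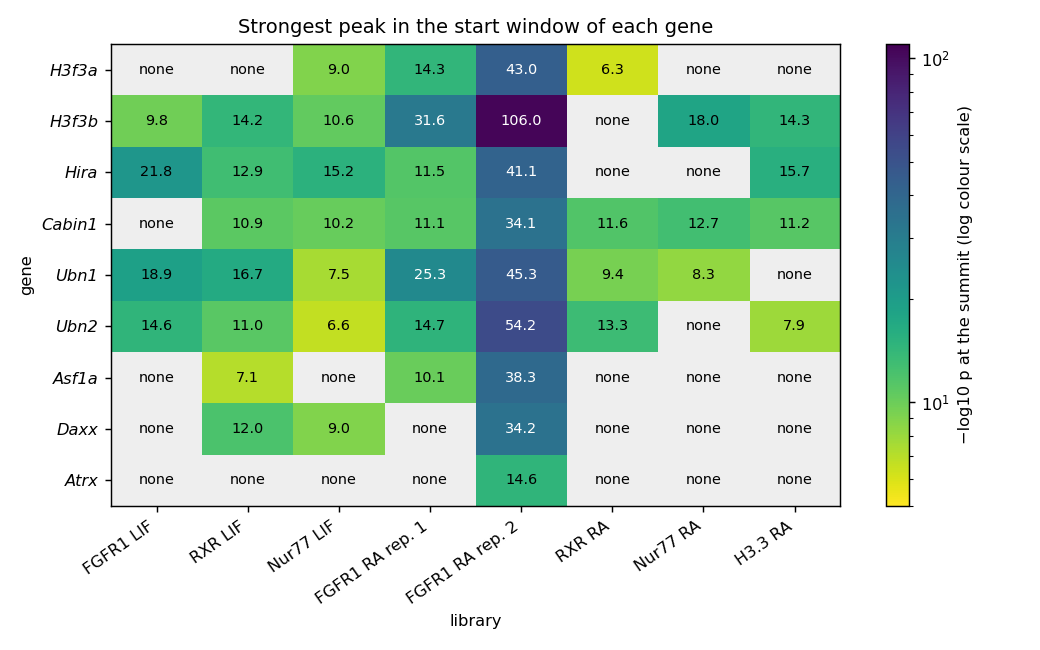
The grid shows, for each of the 9 genes (rows) and 8 libraries (columns), the −log10 p of the strongest start-window peak, with the colour on a log scale and "none" where no peak was listed. FGFR1 in RA replicate 2 has a value at each of the 9 genes, from 14.6 at Atrx to 106 at H3f3b, while Atrx has none in the other 7 libraries; the values of Hira in FGFR1 LIF, Nur77 LIF, FGFR1 RA replicate 1 and H3.3 and of Ubn2 in RXR RA come from repeat tracts inside those genes.

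In ESCs, FGFR1 had a start-window peak at 4 of the 9 genes, H3f3b, Hira, Ubn1 and Ubn2, where 19.6% of all protein-coding genes had one. RXR had peaks at 7, leaving out H3f3a and Atrx, against 46.4% of all genes. Nur77 also had peaks at 7, leaving out Asf1a and Atrx, against 29.7%. H3f3b, Hira, Ubn1 and Ubn2 were listed in each of the 3 libraries from ESCs, against 11.4% of all genes, while Cabin1 of the HIRA complex had no FGFR1 peak there. For Hira the Nur77 peak lay on a repeat tract in an intron and not at the start.

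In NCs, FGFR1 had peaks at 7 genes in replicate 1 and at 9 in replicate 2 (mean 8 ± 1.41, SD, n = 2), against 55.9% and 51.5% of all genes. RXR had peaks at 4, H3f3a, Cabin1, Ubn1 and Ubn2, against 26.1%. Nur77 had peaks at 3, H3f3b, Cabin1 and Ubn1, against 30.9%, which is a share near that of all genes. H3.3 had peaks at 4, H3f3b, Hira, Cabin1 and Ubn2, against 17.9%. Within Nur77 in LIF, the median of the strongest −log10 p was 9.0 over those of the 9 genes with a peak. Over all genes with a start-window peak in that library it was 10.1. Within FGFR1 in RA replicate 2 these medians were 41.1 and 25.5. For the 9 genes these were the lowest and highest medians of the 8 libraries, which differ in depth.

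**Figure D2:**
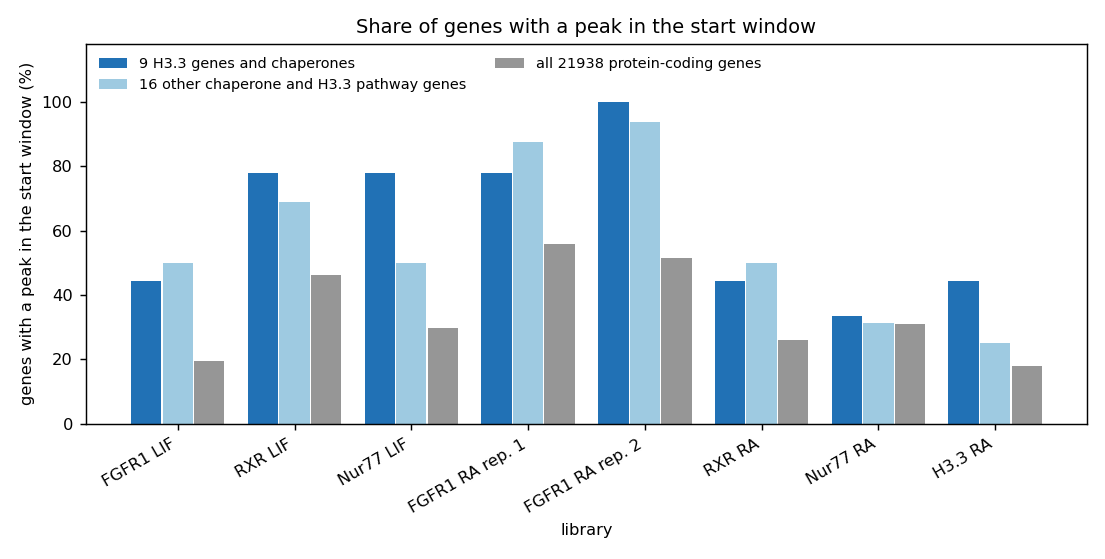
Bars give the percentage of genes with a start-window peak in each library, for the 9 H3.3 genes and chaperones, for 16 other genes of histone chaperones and the H3.3 pathway, and for all 21938 protein-coding genes. The 9 genes stand above all genes in each list, by the least in Nur77 RA, where 33.3% of them and 30.9% of all genes had a peak.

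H3f3a (chr1:180800832-180813943, minus strand) encodes H3.3. Its strongest −log10 p was 9.0 for Nur77 in LIF, 6.27 for RXR in RA, and 14.3 and 43.0 for FGFR1 in RA replicates 1 and 2. No H3f3a peak was listed for FGFR1 or RXR in LIF, or for Nur77 or H3.3 in RA. The peaks lay in 2 places. FGFR1 in RA occupied the start itself in both replicates (chr1:180813343-180813920), with summits from 3 bp upstream to 77 bp downstream of the nearest basic start. A second place lay 305 to 373 bp upstream (chr1:180814226-180814376) and was listed for Nur77 in LIF, RXR in RA and FGFR1 in RA replicate 1. The RXR peak was weak, with a fold of 4.81, 6 fragments at its summit and rank 15052 of 15224. The stretch between the H3f3a start at chr1:180813632 and the start of the antisense transcript H3f3aos, 144 bp away on the opposite strand, is shown because the FGFR1 peak of replicate 2 covered it whole. Other H3f3a transcripts begin farther upstream, so H3f3a and H3f3aos overlap and the stretch lies inside H3f3a, but it holds no exon. Capitals mark GGGCGG or its complement, the word bound by Sp1 (RefSeq, GRCm38, chr1:180813633-180813775, minus strand).
H3f3a: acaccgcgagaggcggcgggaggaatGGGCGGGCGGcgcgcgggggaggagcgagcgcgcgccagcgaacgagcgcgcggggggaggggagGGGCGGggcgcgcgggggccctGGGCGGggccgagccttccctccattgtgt

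H3f3b (chr11:116021912-116027962, minus strand) encodes the same protein as H3f3a. In LIF, the strongest −log10 p of the FGFR1 library was 9.82, that of the RXR library 14.2 and that of the Nur77 library 10.6. In RA, FGFR1 reached 31.6 and 106 in replicates 1 and 2, Nur77 reached 18.0 and H3.3 reached 14.3, and RXR had no peak. The FGFR1 values stood high in their own lists, at rank 1202 of 46137 in replicate 1 and rank 149 of 14082 in replicate 2, where 145 fragments were stacked at the summit. H3f3b thus had a peak in 4 libraries that listed none at H3f3a and shared with it Nur77 in LIF and both FGFR1 libraries from RA, while RXR in RA was listed at H3f3a and not at H3f3b.

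H3f3b had 14 peaks in its window, in 3 places. The first (chr11:116024041-116024693) covered the RefSeq start and was listed in 5 libraries: FGFR1 and RXR in LIF, both FGFR1 libraries in RA, and H3.3. Within it, FGFR1 had summits 3 bp downstream of the start in replicate 2 and exactly at the start in replicate 1, and its strongest peak of replicate 1 lay 241 bp downstream. The H3.3 summit lay 244 bp downstream, with a −log10 p of 9.64. The second place (chr11:116030199-116030813) was also listed in 5 libraries and held the start of Unk, a protein-coding gene on the opposite strand. Its summits lay 2436 to 2578 bp upstream of the far annotated H3f3b start at chr11:116027962. They were farther still from the RefSeq start at chr11:116024504. Both the Nur77 peak in RA and the strongest H3.3 peak of H3f3b were of this second place. The Nur77 peak in LIF stood alone in the third place, 3054 bp upstream of the same far start. Within 1000 bp of a start H3f3b thus had no Nur77 peak in either state. The H3f3b promoter was the sole one of the 9 with TATAAA, a word for the TATA box, in its 300 RefSeq bases. It is shown in capitals in the 30 bases around it, where it begins 27 bases before the RefSeq start (GRCm38, chr11:116024514-116024543, minus strand).
H3f3b: gtgcagcgtctcTATAAAtatggaggcgtc

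Hira (chr16:18877037-18970309, plus strand) encodes the subunit that gives the HIRA complex its name. Its start site (chr16:18876360-18877621) was listed in 5 libraries and faced the start of Mrpl40, 175 bp away on the opposite strand. There the −log10 p was 14.0 for FGFR1 and 12.9 for RXR in LIF, 10.8 and 41.1 for FGFR1 in RA replicates 1 and 2, and 7.76 for H3.3. The summits behind 12.9, 10.8 and 41.1 lay 522, 548 and 277 bp upstream of Hira, beyond the Mrpl40 start. At the Hira start itself, FGFR1 in RA replicate 1 had a weak peak of 6.29, at rank 45466 of 46137. No base of this merged place was covered by peaks of more than 3 libraries. Nur77 in LIF, RXR in RA and Nur77 in RA had no peak at that start. The H3.3 peak was near the bottom of its list, at rank 9672 of 10634.

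A second recurrent place of Hira lay in an intron more than 53 kb downstream of the start (chr16:18930424-18930667), 2460 to 2532 bp before an internal transcript start. It was listed for FGFR1 in LIF, with a −log10 p of 21.8, for Nur77 in LIF, with 15.2, for FGFR1 in RA replicate 1, with 11.5, and for H3.3, with 15.7. In each of these 4 lists the value exceeded that of any peak at the Hira start. The place holds a run of alternating purines and pyrimidines, shown because peaks of 4 libraries with 3 different antibodies overlapped it (GRCm38, chr16:18930425-18930488, plus strand). The summits of FGFR1 and Nur77 in LIF lay in the run, at 18930487 and 18930481. Those of FGFR1 in RA replicate 1 and of H3.3 lay past its end, at 18930552 and 18930553. The capitals mark the whole run.
Hira intron: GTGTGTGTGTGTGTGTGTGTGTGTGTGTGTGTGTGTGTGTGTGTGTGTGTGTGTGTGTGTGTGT

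Of the 31-base words in this place, 60.7% occurred once in the genome, against 100% at the Hira start site. The authors had kept uniquely aligned reads, and the part of the repeat in these peaks was not tested. With peaks on such tracts left out, Nur77 in LIF had 6 of the 9 genes in place of 7, and the counts of the other 7 libraries were the same.

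Cabin1 (chr10:75646112-75764341, minus strand) encodes a large subunit of the HIRA complex. Its start site (chr10:75764022-75764600) was listed in 7 libraries, the most of any place here together with the Ubn1 start. In LIF the −log10 p was 10.9 for RXR and 10.2 for Nur77, and in RA it was 11.1 and 34.1 for FGFR1 replicates 1 and 2, while RXR reached 11.6, Nur77 12.7 and H3.3 11.2. FGFR1 in LIF was the single library without it. The NC peaks of RXR, Nur77 and H3.3 had their summits together, 203 to 211 bp downstream of the start, while the Nur77 peak in LIF had its summit 122 bp upstream. RXR in LIF had peaks on both sides, 161 bp upstream and 174 bp downstream. The Cabin1 promoter is shown because the Cabin1 start site carried peaks of all 4 antibodies with no other annotated gene start within 1000 bp. Peaks of FGFR1 in RA replicate 2 and of RXR and Nur77 in LIF reached the printed stretch. Those of H3.3, of RXR and Nur77 in RA and of FGFR1 in RA replicate 1 lay downstream, outside it. Capitals mark CCAAT, the word of the factor NF-Y, and GGGCGG, or their complements (RefSeq, GRCm38, chr10:75764358-75764607, minus strand).
Cabin1: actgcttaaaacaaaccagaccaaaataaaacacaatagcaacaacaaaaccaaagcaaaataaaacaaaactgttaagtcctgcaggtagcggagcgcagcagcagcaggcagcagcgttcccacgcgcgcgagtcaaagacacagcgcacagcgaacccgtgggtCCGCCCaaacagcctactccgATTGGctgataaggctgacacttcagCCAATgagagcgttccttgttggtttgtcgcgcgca

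Ubn1 (chr16:5050057-5086289, plus strand) encodes a ubinuclein, the HIRA complex subunit that contacts H3.3. Its start site (chr16:5049682-5050235) was listed in 7 libraries, and H3.3 was the single library without it. In LIF, FGFR1 reached a −log10 p of 18.9, RXR 16.7 and Nur77 7.51. In RA, FGFR1 reached 25.3 and 45.3 in replicates 1 and 2, RXR 9.39 and Nur77 8.26. Within their own lists the FGFR1 and RXR LIF peaks were strong, above 80.5% and 88.3% of the peaks, whereas the Nur77 peaks were above 11.2% in LIF and 14.8% in RA. The strongest peak of each library had its summit between 120 and 233 bp upstream of Ubn1. Glyr1 begins 194 bp upstream on the opposite strand, so the summits of FGFR1 in LIF and in RA replicate 2 lay just beyond the Glyr1 start, that of RXR in LIF lay on it, and those of the other 4 libraries lay in the gap between the starts.

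The gap between Glyr1 and Ubn1 is shown whole because peaks of all 7 libraries met inside it. Capitals mark the words of Sp1 (GGGCGG) and of NF-Y (CCAAT), the E-box word (CACGTG) and the CRE word of CREB and ATF factors (TGACGTCA), on either strand (RefSeq, GRCm38, chr16:5049864-5050056, plus strand). The line under it gives the 32 bases that peaks of all 7 libraries covered (chr16:5049901-5049932).
Ubn1 gap: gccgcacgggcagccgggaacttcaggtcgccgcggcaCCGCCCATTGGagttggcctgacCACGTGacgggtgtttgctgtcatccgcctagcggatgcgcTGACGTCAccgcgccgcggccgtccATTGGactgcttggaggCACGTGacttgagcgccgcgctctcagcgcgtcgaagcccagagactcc
Ubn1 shared bases: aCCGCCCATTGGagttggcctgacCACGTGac

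Ubn2 (chr6:38433950-38524825, plus strand) encodes the other ubinuclein. Its start site (chr6:38433605-38434189) was listed in 6 libraries, and the −log10 p there was 14.6 for FGFR1 and 11.0 for RXR in LIF, 14.7 and 54.2 for FGFR1 in RA replicates 1 and 2, 13.0 for RXR in RA and 7.86 for H3.3. Nur77 had a weak peak in LIF 414 bp downstream, with 6.64, above 6.41% of its list, and no peak in RA. The pair of ubinuclein genes therefore differed in NCs: Ubn1 was listed for Nur77 and not for H3.3, and Ubn2 for H3.3 and not for Nur77. Both peaks behind this difference were weak, above 14.8% and 10.7% of their lists, and neither reached a −log10 p of 10, so with that limit neither gene was listed for either. RXR in RA also had a peak of 13.3 at an alternating tract in an intron of Ubn2 (chr6:38483474-38483591). The Ubn2 promoter is shown because, like that of Ubn1, it holds TGACGTCA. Capitals mark this word and CGCATGCG, the word of the factor NRF1 (RefSeq, GRCm38, chr6:38433675-38433924, plus strand).
Ubn2: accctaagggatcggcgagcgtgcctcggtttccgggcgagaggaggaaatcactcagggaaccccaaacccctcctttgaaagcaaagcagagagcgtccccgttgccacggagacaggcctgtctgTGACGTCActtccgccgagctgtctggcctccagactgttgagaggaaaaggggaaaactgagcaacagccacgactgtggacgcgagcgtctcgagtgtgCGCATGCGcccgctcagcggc

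Asf1a (chr10:53596757-53609225, plus strand) encodes the chaperone that hands newly made histones to HIRA. Its −log10 p was 7.06 for RXR in LIF and 10.1 and 38.3 for FGFR1 in RA replicates 1 and 2, and the other 5 libraries had no peak. The FGFR1 summits of both replicates lay 48 and 54 bp upstream of the nearest basic start. The start of Mcm9, a gene of DNA replication and repair on the opposite strand, lay 95 bp from an Asf1a start, and the FGFR1 peak of replicate 2 spanned both.

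Daxx (chr17:33909414-33915590, plus strand) encodes the H3.3 chaperone that works with ATRX. In LIF, RXR had a −log10 p of 12.0 there and Nur77 of 8.99, and the value was 34.2 for FGFR1 in RA replicate 2. No peak was listed for FGFR1 in LIF or in RA replicate 1, so the FGFR1 peaks at Daxx rested on replicate 2. That library had one peak 280 bp upstream, across the start of BC051226, a noncoding transcript that begins 128 bp away on the opposite strand, and a second at the start, with a −log10 p of 14.6. The other libraries from RA, for RXR, Nur77 and H3.3, had no peak at Daxx.

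Atrx (chrX:105797615-105929403, minus strand) encodes the remodeller that partners DAXX. The FGFR1 library of RA replicate 2 had a peak at its start (chrX:105928988-105929362), with a −log10 p of 14.6, 17 fragments at the summit and rank 9186 of 14082. The other 7 libraries had none. An intronic place more than 57 kb downstream (chrX:105871521-105871626) was listed for RXR in LIF, with 16.04, and for FGFR1 in RA replicate 1, with 16.7. This place held an alternating run, and 46.1% of its 31-base words occurred once in the genome.
Atrx intron: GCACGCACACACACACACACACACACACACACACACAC

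The sequence above lies at chrX:105871534-105871571, plus strand, with the run in capitals, and is shown because it carried the sole Atrx peaks of those libraries. X-linked genes had few start-window peaks in these lists as a whole: between 2.64% of 948 genes for H3.3 and 30.8% for FGFR1 in RA replicate 2, against 18.8% and 52.8% of autosomal genes. Atrx was the single X-linked gene of the 9, so its low number of libraries and its chromosome cannot be told apart. Its promoter is shown for contrast with the others, since it had the lowest CpG content of the 9. Capitals mark CCAAT and AGGTCA, the word that nuclear receptors such as RXR recognise (RefSeq, GRCm38, chrX:105929404-105929622, minus strand).
Atrx: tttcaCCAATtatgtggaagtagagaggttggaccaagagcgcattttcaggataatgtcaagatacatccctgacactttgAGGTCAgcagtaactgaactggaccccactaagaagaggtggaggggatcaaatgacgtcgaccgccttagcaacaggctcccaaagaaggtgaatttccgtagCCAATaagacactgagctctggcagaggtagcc

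**Figure D3:**
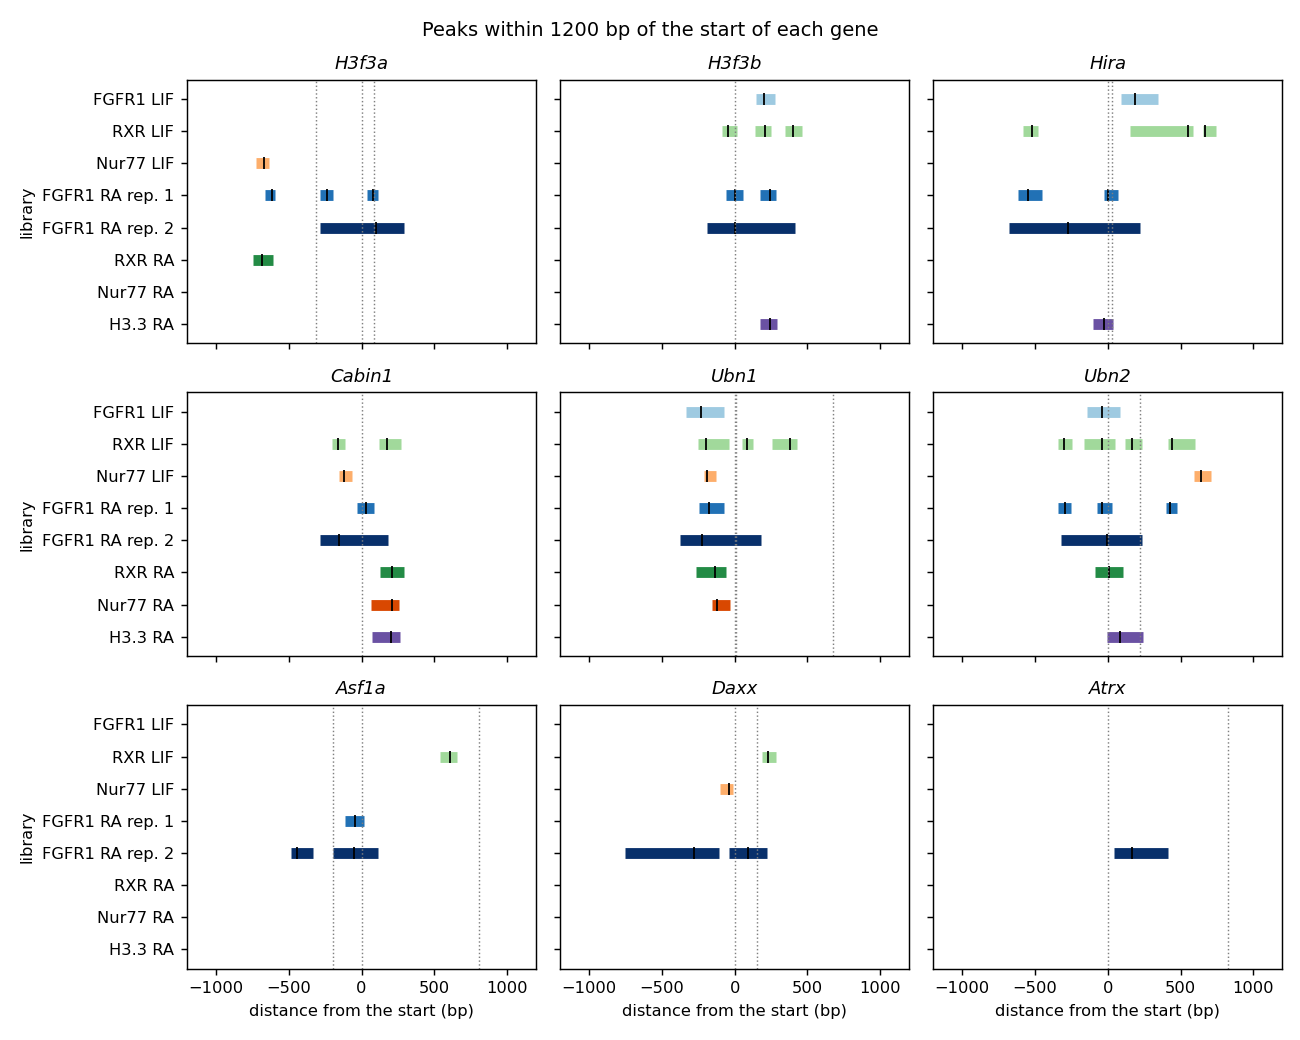
Each panel draws the peaks of 1 gene within 1200 bp of its start, with distance in bp on the horizontal axis, 1 row per library, coloured bars for peaks and black ticks for summits. Zero is the basic transcript start nearest the RefSeq start, dotted lines are other basic starts, and the bars of Cabin1 and Ubn1 line up over 7 rows while Atrx has a bar in 1.

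The study's main contrast was between ESCs and NCs. FGFR1 had no start-window peak in LIF and a peak in both RA replicates at 3 of the 9 genes, H3f3a, Cabin1 and Asf1a, where 26% of all protein-coding genes had this pattern. Replicate 2 added Daxx and Atrx. No gene had an FGFR1 peak in LIF and in neither RA replicate, a pattern shown by 0.438% of all genes. The FGFR1 list from LIF was among the shorter ones, with 11378 peaks and a background of 2.71 fragments per kb, and depth and state cannot be told apart with 1 LIF library.

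RXR had peaks in both states at Cabin1, Ubn1 and Ubn2, and at each of these the LIF and RA peaks overlapped, with summits within 100 bp. Of all genes with an RXR peak in both states, 79.4% had overlapping peaks and 64.9% had summits that close. H3f3b, Hira, Asf1a and Daxx had an RXR peak in LIF and none in RA, which is 4 of 9 against 24.5% of all genes. H3f3a alone had one in RA and none in LIF, against 4.31%. The RXR list from LIF was longer than that from RA, with 30586 and 15224 peaks, and its background was 7.09 against 1.87 fragments per kb.

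Nur77 had peaks in both states at H3f3b, Cabin1 and Ubn1, but the LIF and RA peaks overlapped at Ubn1 and not at the other two, where 67.9% of all genes with a Nur77 peak in both states had overlapping peaks. H3f3a, Hira, Ubn2 and Daxx had a Nur77 peak in LIF and none in RA, which is 4 of 9 against 12.3% of all genes. None of the 9 had the reverse, which 13.5% of all genes had. The Nur77 lists were of like length, 22651 peaks in LIF and 25995 in RA, and the share of all genes with a peak was 29.7% and 30.9%. The LIF peaks at H3f3a, Ubn2 and Daxx were weak, with −log10 p values from 6.64 to 9.0 against a list median of 10.4, and that at Hira lay on the repeat tract. With peaks kept at a −log10 p of at least 10, the Nur77 counts were 3 in LIF and 2 in RA. With an equal number of peaks in every list they were 2 and 2, against 13.0% and 11.3% of all genes.

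The FGFR1 replicates in RA shared 7 of the 9 genes, all but Daxx and Atrx, where 42.5% of all genes had a peak in both. At each of the 7, peaks of the replicates overlapped by at least 1 bp, and at 5 of them, H3f3a, H3f3b, Ubn1, Ubn2 and Asf1a, summits lay within 100 bp of each other. Hira and Cabin1 were the exceptions. Of all genes with a peak in both replicates, 83.7% had overlapping peaks and 63.9% had summits that close. The order of genes differed between the replicates: H3f3b led in both, Ubn1 was next in replicate 1, with 25.3, and Ubn2 in replicate 2, with 54.2. With each list limited to its 10634 strongest peaks, replicate 1 had peaks at H3f3b and Ubn1 alone, a share near the 20.6% of all genes. Replicate 2 still had them at 9 genes, against 44.6% of all genes, so the number of shared genes was 2. In that setting FGFR1 in LIF had 4 genes, against 18.0%, so replicate 1 stood below LIF and replicate 2 above it. Over all genes both replicates stood above LIF.

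The H3.3 library asks where the protein made by H3f3a and H3f3b lay at the genes of its own supply. It had 6 peaks in the start windows, at H3f3b, Hira, Cabin1 and Ubn2, and none at Daxx, Atrx, Asf1a, Ubn1 or H3f3a. All 6 overlapped a peak of FGFR1 in RA replicate 1, and 5 overlapped one of replicate 2. The 4 genes had start-window peaks of H3.3 and of FGFR1 in both replicates, where 13.7% of all genes did, with no overlap asked. Those were 3010 of the 3928 protein-coding genes with an H3.3 peak, so most genes with H3.3 had this pattern. The H3.3 −log10 p was 14.3 at the Unk side of H3f3b, 9.64 at the H3f3b start, 11.2 at Cabin1, 7.86 at Ubn2, and 7.76 at the Hira start and 15.7 at its repeat tract. The list median was 11.2, so the peaks at the starts of H3f3b, Hira and Ubn2 were below it. With 1.27 fragments per kb this was the shallowest library, and its summits at these genes held 7 to 11 fragments, so a gene without an H3.3 peak was not shown to lack H3.3.

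**Figure D4:**
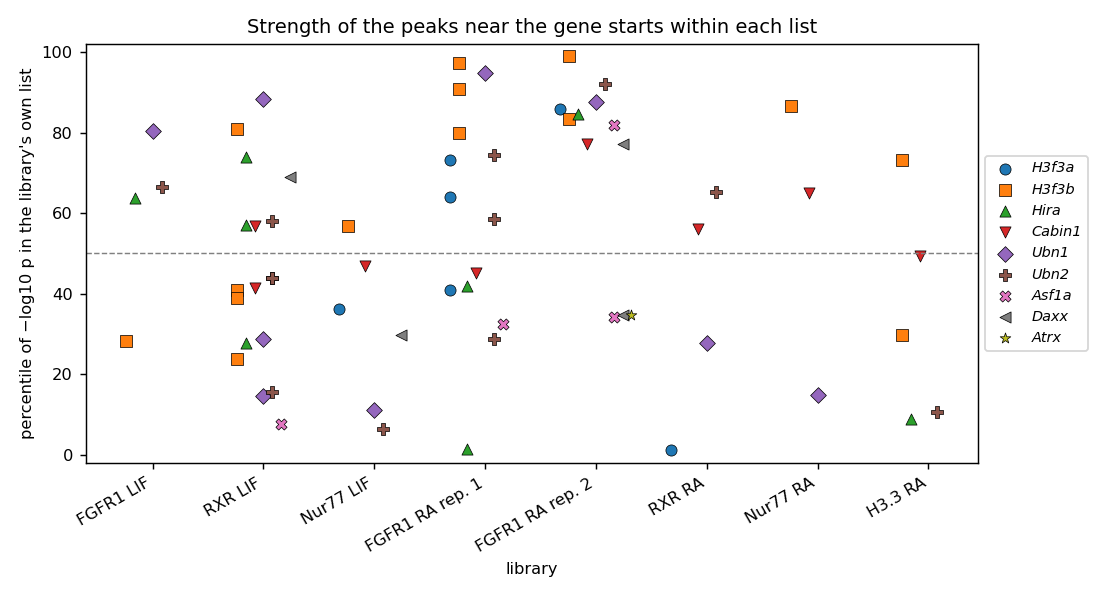
Each symbol is a peak near a basic start of 1 of the 9 genes, placed by library and by the percentage of that library's peaks with a lower −log10 p, and the dashed line is the middle of the list. H3f3b reaches 97.4% and 98.9% in the FGFR1 RA libraries, while Nur77 LIF peaks of these genes lie at 56.7% or below.

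Within gene bodies, outside the start windows, peaks were fewer. FGFR1 in LIF had one at Ubn1 (11.2% of all genes had a body peak), RXR in LIF at Hira and Atrx (22.9%), and Nur77 in LIF at Cabin1 and Ubn2 (20.6%). In RA, FGFR1 replicate 1 had them at Cabin1, Ubn2 and Atrx (31.1%) and replicate 2 at none of the 9 (5.28%). RXR in RA had none (14.2%), Nur77 in RA had them at Cabin1 and Ubn1 (23%), and H3.3 had none (11.4%). In each library that listed a body peak at any of the 9, their share was near that of all genes. The place in Ubn1 recurred in FGFR1 LIF and Nur77 RA (chr16:5081905-5082020) and lay in a coding exon, with −log10 p values of 9.18 and 9.13. A place in a Cabin1 intron (chr10:75739564-75739712) recurred in FGFR1 RA replicate 1, with 9.29, and Nur77 RA, with 14.2. The strongest intronic Cabin1 peak, 19.2 for FGFR1 in RA replicate 1 (chr10:75708801-75708908), was in that library alone and was stronger than the 11.1 of the same library at the Cabin1 start.

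Merging peaks that overlapped gave 31 places at the 9 genes. Of these, 16 were listed in a single library and 7 in 4 or more. Those 7 were the starts of H3f3b, Hira, Cabin1, Ubn1 and Ubn2, the Unk side of H3f3b and the Hira tract. None of the 66 peaks near basic starts held an alternating tract of 20 bp or more, whereas 5 of the 8 at internal starts and 3 of the 11 in gene bodies did.

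The starts of these genes were also described by features that were not used to choose them. RefSeq promoters, 250 bases before to 50 after the start, were matched for all 9 genes, in 11 rows because Daxx has several starts. The observed to expected ratio of CpG had a median of 0.907 over the 11, from 0.583 at Atrx to 1.08 at Ubn1, against 0.384 over 32851 promoters. GC content had a median of 69%, from 50.3% at Atrx to 74% at H3f3a, against a median of 52.7%. A start on the opposite strand within 1000 bp was annotated for 5 of the 9, H3f3a, Hira, Ubn1, Asf1a and Daxx, which is 55.6% against 20.5% of all protein-coding genes. At these 5, a peak at the shared stretch cannot be assigned to either gene.

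Words of 10 transcription factor motifs were counted on both strands of the promoters, as a description and not as bound sites. CCAAT was present at 7 of the 9 genes, all but Hira and Ubn2, against 37.4% of promoters, and GGGCGG at 6, H3f3a, Hira, Cabin1, Ubn1, Asf1a and Daxx, against 35.7%. TGACGTCA was present at Ubn1 and Ubn2 and in 1.79% of promoters. Ubn1 also held CACGTG (7.15% of promoters) and AAGATGGCG, a YY1 word (1.40%). Ubn2 held CGCATGCG (1.87%), Daxx held CCGGAAGT, an ETS word (3.89%), and H3f3b held TATAAA (13.6%). AGGTCA was present at Atrx alone (16.3%), and AAAGGTCA, the longer word of Nur77, which contains AGGTCA, at none of the 9 (1.51%).

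Because only uniquely aligned reads had been kept, the share of 31-base words that occur once was taken within 1000 bp of each annotated gene start. It was 97.0% to 100% for 8 of the 9 genes. For H3f3b it was 77.0% at the far annotated start and 89.9% within 1000 bp of the RefSeq start, where 8 of its 14 peaks lay, and 100% in the place at the Unk start. Within 1000 bp of the RefSeq start of Hira it was 89.6%, and for the remaining genes 98.1% or more. The read length is not given in the sources used here, so the effect of this on the peak lists was not tested.

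Other genes of histone chaperoning and H3.3 biology were counted as a list of 16: Asf1b, Chaf1a, Chaf1b, Rbbp4, Rbbp7, Nasp, Supt16, Ssrp1, Dek, Ep400, Chd1, Chd2, Zmynd11, Setdb1, Trim28 and Morc3. In LIF, FGFR1 had start-window peaks at 8 of them (19.6% of all genes), RXR at 11 (46.4%) and Nur77 at 8 (29.7%). In RA, FGFR1 had them at 14 and 15 in the 2 replicates (55.9% and 51.5%), RXR at 8 (26.1%), Nur77 at 5 (30.9%) and H3.3 at 4 (17.9%). For Nur77 in RA the 5 genes were 31.25% of the list, a share near that of all genes. Ep400, a remodeller linked to H3.3 exchange, was the sole gene among these and the 9 with a peak in all 8 libraries. Of protein-coding genes 3.68% had this, so 1 gene among the 16 and the 9 was near that share. Its −log10 p was 16.5 for FGFR1 in LIF, 85.4 for FGFR1 in RA replicate 2 and 11.3 for H3.3. Setdb1, a histone methyltransferase, had a peak in 1 library, FGFR1 in RA replicate 1, with 10.4.

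Asf1b, the paralogue of Asf1a that is best known for its role in dividing cells, differed from it in the libraries listed. Its −log10 p was 7.58 for FGFR1 and 14.4 for RXR in LIF and 26.8 for FGFR1 in RA replicate 2, with no peak in replicate 1. The products of the CAF-1 genes place canonical H3 during replication. Of these genes, Chaf1a and Chaf1b were listed for H3.3 and Rbbp4 was not. Their values of 8.39 and 8.76 were below the median of the H3.3 list, 11.2.

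Between the profiles of H3f3a and H3f3b over the 8 libraries, the Euclidean distance of log2(1 + strongest −log10 p), with 0 where no peak was listed, was 8.47. It was not set against the distance of a typical pair of genes. The Nur77 value of H3f3b in RA and its H3.3 value came from the place at the Unk start. The RXR peak of H3f3a in RA was among the weakest of its list. The genes nearest to H3f3a by this measure were Hltf (0.327), Alg10b (0.355) and Pole2 (0.357), each with peaks in the same 4 libraries. Those nearest to H3f3b were Rpl21 (1.06), Rcc1 (1.16) and Pcyox1 (1.18), each with peaks in the same 7. For Rcc1 the FGFR1 value in RA replicate 2 was 151, above the 106 of H3f3b, and for Rpl21 and Pcyox1 it was 68.9 and 47.3.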

How the data were processed

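Chromatin immunoprecipitation and sequencing was done by the authors on 8 libraries in 7 groups, read from the sample titles. Per the study's methods, the authors aligned reads to mm10 with Bowtie 1.0, retained uniquely aligned reads, and ran MACS2 on every library by itself (p limit 1e-05), with no control library named and no pooling. The deposited lists give for each peak the fold (the ratio of fragments at the summit to the local background), the −log10 p and −log10 q at the summit, a score of 10 times the −log10 p, and the summit position, all as the authors' MACS2 wrote them. The score was not used beyond checking it.

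Fragments at the summit and the background were solved from the deposited fold and −log10 p (within 0.002 for 100% of peaks, tested on simulated data), and the shortest peak served as the fragment length. Depth is thus inferred, and sequencing totals are not given in the sources used here. Genes and starts came from GENCODE M21, and a start-window peak needed 20 bp of overlap. Peaks of separate lists matched at 1 bp. Promoter letters came from RefSeq (GRCm38.p6) and equalled the genome in 11 of 11 rows. Python 3.11.15, numpy 2.4.6, pandas 2.3.3, scipy 1.17.1, pysam 0.24.0 and matplotlib 3.10.9 were used.

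The named genes were the 9 genes, the 16 other pathway genes, the 3 genes nearest to H3f3a and to H3f3b, and genes starting in their windows. The members and lists were chosen with earlier results of these data known. No test was run, because 6 groups had a single library and the other had 2. The alternatives were limits on −log10 p (10 or more), −log10 q (2 or more) and fold (5 or more), an equal number of 10634 peaks, no tract peaks, windows of 1000 bp either side, basic transcripts, an overlap of 1 bp, the summit in the window, summits within 100 bp for matching, and leaving out each FGFR1 RA library.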

Additional observations from a re-analysis of the deposited data

Results flagged for a closer look

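The number of the 9 genes with a start-window peak differed in direction between antibodies when RA was set against LIF. For FGFR1 the difference was 3 genes more with RA replicate 1 and 5 more with RA replicate 2 (RA minus LIF of 3 and 5). For RXR it was -3, and for Nur77 it was -4. Both FGFR1 libraries from RA stood above the LIF library, and the RXR and Nur77 libraries from RA stood below theirs, which is why these values are singled out. With an equal number of peaks in each list, however, the difference of FGFR1 replicate 1 turned to -2 while that of replicate 2 was still 5, and that of Nur77 was 0. The shares of all genes in that setting were 18.0% for FGFR1 in LIF, and 20.6% and 44.6% for RA replicates 1 and 2. For Nur77 they were 13.0% in LIF and 11.3% in RA. The difference between antibodies was not tested, since each state had 1 RXR and 1 Nur77 library. With the full lists, the share of all protein-coding genes with a start-window peak moved the same way for FGFR1 and for RXR. For Nur77 it was 29.7% in LIF and 30.9% in RA. The background density moved with the counts, from 2.71 to 4.17 and 6.78 fragments per kb for FGFR1, from 7.09 to 1.87 for RXR and from 4.98 to 3.82 for Nur77, and its part in the counts was not tested.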

How the results depend on the processing

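The counts of genes with a start-window peak, their RA minus LIF differences and the FGFR1 replicate overlaps gave 122 values under the alternatives, of which 112 stayed within 1.5 times the reported value, 9 moved further and 1 reversed. With a −log10 p of at least 10, Nur77 in LIF had 3 genes, RXR in RA had 2, and the Nur77 difference was -1. With an equal number of peaks in each list, RXR in LIF had 4 genes, Nur77 in LIF 2 and RXR in RA 2. The shares of all genes were then 17.1%, 13.0% and 15.1%. The FGFR1 difference was 1.5, the mean of -2 for RA replicate 1, which reversed, and 5 for replicate 2. The Nur77 difference was 0, and 2 genes had FGFR1 peaks in both RA replicates. Fewer peaks were kept in both settings. Leaving out each FGFR1 RA library in turn gave 7 to 9 genes and a difference of 3 to 5. Of 7 counts of gene body peaks without tract peaks, 2 moved, both to 1, for RXR and Nur77 in LIF. No paired analysis was possible because no test was run and only FGFR1 in RA had more than 1 library.

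Depth limits what the absence of a peak shows: the H3.3, RXR RA and FGFR1 LIF libraries had the lowest backgrounds, at 1.27, 1.87 and 2.71 fragments per kb, and a gene without a peak there was not shown to lack the protein.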
